A study of Mus musculus with 16 samples.

Results

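The immunoglobulin constant region and plasma cell genes described here are 10 of the 54752 genes counted in iWAT, inguinal white adipose tissue, a fat depot under the skin of the groin. They were chosen by name and matched to the Ensembl identifiers of the count table, which held all 10. They comprise the heavy chain genes Ighm, Ighd, Igha, Ighg1, Ighg2b, Ighg2c and Ighg3, the kappa light chain gene Igkc, and 2 genes named as plasma cell genes, Jchain and Mzb1. The tissue came from mice labelled as C57BL/6 females aged 90 days (C57BL/6J in the study's methods), with 4 libraries for each of 4 genotypes. WT animals had no mutation. Lepob/+ mice carried a single ob allele of Lep, the leptin gene, and SOD1G93A mice carried many copies of a human mutant SOD1 transgene, a model of amyotrophic lateral sclerosis. SOD1G93A-Lepob/+ mice carried both. Total counts ran from 36795376 to 61886313 per library, and the labels do not say whether the 4 libraries of a genotype came from separate litters or cages.

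An antibody is built from heavy and light chains, and each heavy chain carries the constant region of 1 isotype. A naive B cell makes IgM and IgD from the same long transcript by splicing, and after class switch recombination it makes IgG, IgA or IgE from a constant gene further along the same locus. Plasma cells are the end stage that secretes antibody in quantity, helped by Mzb1, a chaperone of the endoplasmic reticulum, while the J chain joins IgM and IgA into polymers.

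The 7 heavy chain genes lie on the minus strand of chromosome 12 of GRCm38 (mm10) in the order of transcription. Ighm (ENSMUSG00000076617) comes first, at chr12:113418558-113422730, followed by Ighd (ENSMUSG00000104213) at chr12:113406604-113416324. Ighg3 (ENSMUSG00000076615, chr12:113356224-113361232), Ighg1 (ENSMUSG00000076614, chr12:113325240-113330523), Ighg2b (ENSMUSG00000076613, chr12:113302965-113307933) and Ighg2c (ENSMUSG00000076612, chr12:113285325-113288932) form the IgG stretch. Igha (ENSMUSG00000095079, chr12:113254830-113260236) is the last. Igkc (ENSMUSG00000076609) is on the plus strand at chr6:70726435-70726966 and Jchain (ENSMUSG00000067149) on the minus strand at chr5:88519809-88527891. The position of Mzb1 is given with its counts.

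The IgG genes are close relatives, and the hinge, encoded by exon 2, is the flexible link between the arms and the stem of the antibody. The hinge exons are shown because separate IgG counts depend on reads telling these genes apart. They were read from the GENCODE transcripts of GRCm38, 5′ to 3′ on the transcribed strand. Capitals mark the in-frame cysteine codons, whose products can link chains of the antibody.
Ighg1 (chr12:113329844-113329882): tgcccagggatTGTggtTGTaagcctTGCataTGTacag
Ighg2b (chr12:113307261-113307326): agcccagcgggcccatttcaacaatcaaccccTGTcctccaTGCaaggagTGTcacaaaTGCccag
Ighg2c (chr12:113288263-113288325): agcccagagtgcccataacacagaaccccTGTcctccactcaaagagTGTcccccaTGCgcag
Ighg3 (chr12:113360529-113360576): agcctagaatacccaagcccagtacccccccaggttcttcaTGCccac
The Ighg1 and Ighg2b hinges held 4 cysteine codons each, that of Ighg2c 3 and that of Ighg3 1. Over the secreted coding sequence, Ighg2b and Ighg2c were the closest pair, with 85.6% identity, and the other IgG pairs had 73.4 to 75.5%. No 100-base window of the transcripts of the 7 heavy chain genes, Igkc or Jchain occurred in another annotated gene, whereas 49.4% of the windows of Mzb1 did, in SPATA24.

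Levels are given as counts per library, or as CPM, counts scaled to a common library total with TMM factors. Per kilobase of exon, Ighm had the highest median in 3 genotypes (213 CPM per kb in WT, 138 in Lepob/+ and 122 in SOD1G93A-Lepob/+), and Igkc the highest in SOD1G93A (359, against 323 for Ighm). In WT the order by median CPM per kb was Ighm, Igkc (134), Ighd (49.6), Igha (3.85), Mzb1 (3.74), Jchain (1.65) and the IgG genes, which had medians of 0.0949 to 0.439. From Ighm to Jchain, neighbours in this order overlapped between libraries.

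Ighm, the constant gene of IgM and of the first antigen receptor, was high in every library. In WT its counts were 24415, 17474, 13075 and 15390. They were 7359, 9366, 32583 and 8760 in Lepob/+, 24993, 51960, 18098 and 29685 in SOD1G93A, and 12108, 7638, 22343 and 6691 in SOD1G93A-Lepob/+. The genotypes overlapped, and the highest libraries were SOD1G93A 2 and Lepob/+ 3.

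Igkc, which encodes the constant part of most mouse light chains, varied far more between libraries of a genotype. WT had 8103, 5401, 744 and 746 counts, Lepob/+ 485, 386, 16054 and 641, SOD1G93A 8114, 23640, 1156 and 9053, and SOD1G93A-Lepob/+ 555, 1040, 138 and 211. Libraries thus had either 5401 counts or more or 1156 or fewer, and all 4 of SOD1G93A-Lepob/+ were in the low set.

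Ighd, made by mature naive B cells together with Ighm, split in the same way. Its counts were 11343, 7730, 166 and 469 in WT, 320, 370, 17441 and 113 in Lepob/+, 12843, 25320, 215 and 15450 in SOD1G93A, and 153, 198, 203 and 112 in SOD1G93A-Lepob/+. Mzb1 (ENSMUSG00000024353, minus strand, chr18:35647267-35649367) followed the split, with 377 to 1014 counts in WT 1 and 2, Lepob/+ 3 and SOD1G93A 1, 2 and 4, and 6 to 47 in the other 10 libraries. It shares 695 of its 1215 exon bases with SPATA24 on the same strand, so its counts hold only the reads that the counting could assign and are uncertain.

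**Figure D1:**
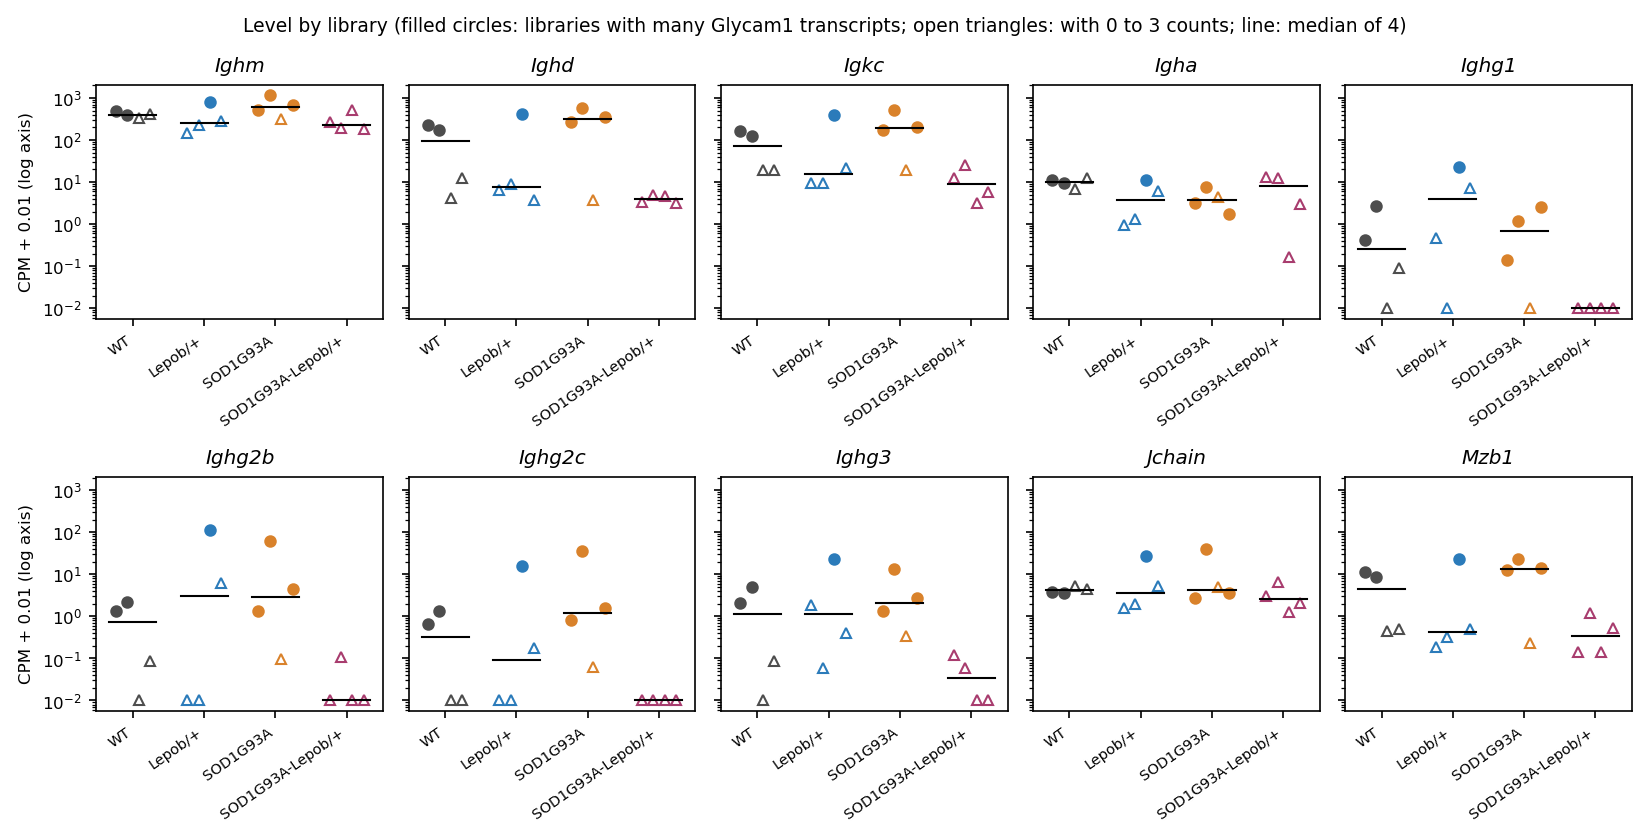
Level of each of the 10 genes in each library, by genotype, in CPM with 0.01 added so that 0 can be drawn on the log axis. Filled circles are the 6 libraries with 8931 to 25444 Glycam1 counts, open triangles the 10 with 0 to 3, and the line is the median of 4 libraries. Ighd, Igkc, Ighg2c and Mzb1 separate circles from triangles, and the 4 SOD1G93A-Lepob/+ libraries are all triangles.

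The same 6 libraries held lymph node transcripts. Glycam1, a mucin-like ligand made by high endothelial venules, where lymphocytes leave the blood for the node, had 8931 to 25444 counts in WT 1 and 2, Lepob/+ 3 and SOD1G93A 1, 2 and 4, and 0 to 3 counts in the other 10. The other 6 genes of the list of lymph node stroma and venules (Ccl19, Ccl21a, Cxcl13, Madcam1, Chst4 and Fut7) were summed with Glycam1. In WT the sum ran from 5.17 to 696 CPM and in Lepob/+ from 9.13 to 1039 CPM. It ran from 14.3 to 1070 CPM in SOD1G93A, and SOD1G93A-Lepob/+ libraries had 7.23 to 47.3 CPM. The 14 B cell identity genes moved alike, with summed levels of up to 918 CPM in WT, 1822 in Lepob/+ and 2245 in SOD1G93A, but 14.2 to 27.0 CPM across the SOD1G93A-Lepob/+ libraries. Cd79a, the signalling partner of the B cell receptor, had 5232 to 15181 counts in the 6 libraries and 17 to 145 in the other 10. The 8 adipocyte genes summed to 10630 CPM or more in each of the 16 libraries. The 8 skeletal muscle genes summed to 168500 CPM in Lepob/+ 4, against 11590 CPM of the adipocyte genes there, and to 4293 CPM in WT 3, and to 197 CPM or less in the other 14. A library of bulk tissue does not separate fewer cells of a type from less RNA per cell, and which of the 2 set the levels here cannot be told apart.

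Between these 6 libraries and the other 10, Ighd ran from 7730 to 25320 counts against 112 to 469, and Igkc from 5401 to 23640 against 138 to 1156. Ighg2c ran from 31 to 1612 against 0 to 5. Those ranges did not overlap, and neither did the summed variable segments of the heavy chain (966 to 5122 counts against 50 to 669) and of the kappa chain (2036 to 11422 against 69 to 913) or the lambda constant genes (2824 to 7493 against 22 to 259). Ighm (17474 to 51960 against 6691 to 22343), Igha, Jchain, Ighg1, Ighg2b and Ighg3 overlapped. These ranges describe libraries, not genotypes, and no test was made on them.

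Ighm therefore kept much of its level where its usual partners were low. For each 100 Ighm counts there were 30.5 to 49.3 Igkc counts in the 6 libraries and 0.618 to 13.6 in the other 10. Ighd gave 44.2 to 53.5 per 100 Ighm counts in the 6 and 0.909 to 4.35 in the 10, and the heavy chain variable segments 4.58 to 11.9 and 0.488 to 3.76. By contrast, variable kappa segments stood at 36.6 to 48.3 per 100 Igkc counts in the 6 and 36.8 to 79.0 in the 10, so the kappa variable and constant parts stayed in similar proportion. Jchain stood at 1.61 to 7.43 counts per 100 of Igkc in the 6 libraries and 16.1 to 40.6 in the 10, where Igkc was lower. Its own counts were 131 to 1757 in the 6 and 56 to 289 in the 10.

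**Figure D2:**
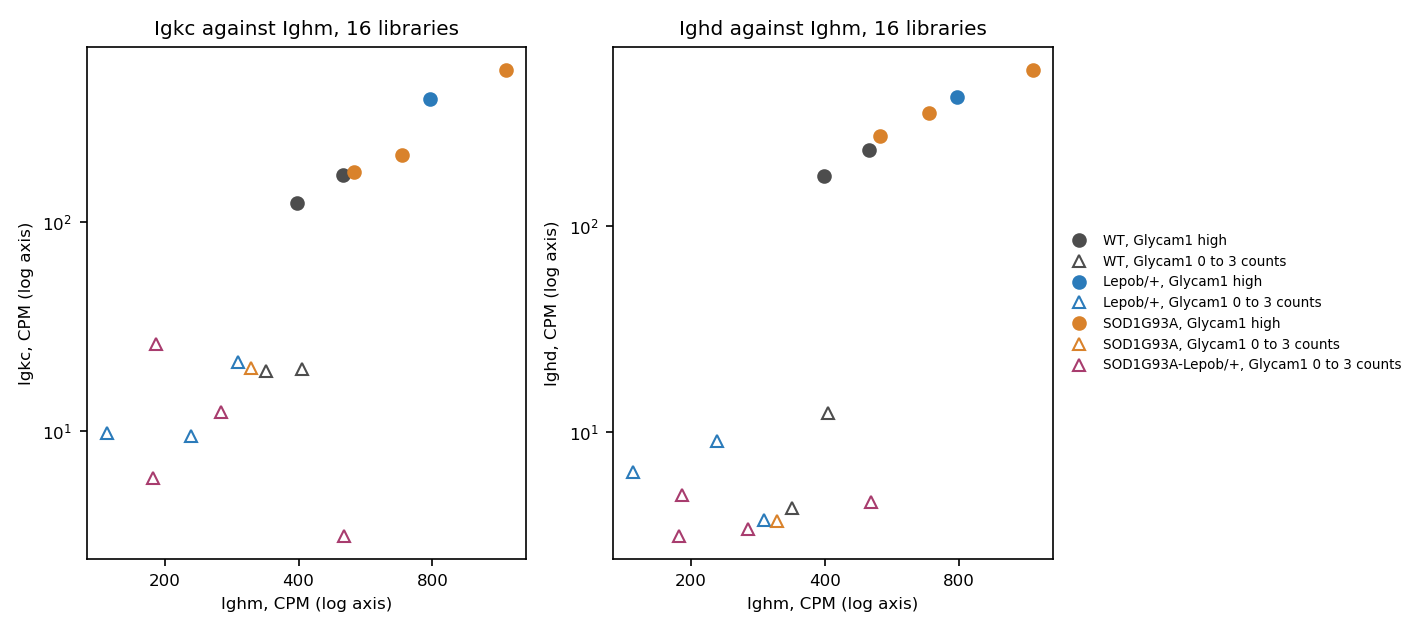
Igkc (left) and Ighd (right) against Ighm in the 16 libraries, in CPM on log axes, coloured by genotype. Filled circles are the 6 libraries with many Glycam1 counts, where Igkc is at 123 CPM or more and Ighd at 176 CPM or more, and open triangles are the 10 with 0 to 3, where Igkc stays at 3.13 to 26.0 CPM and Ighd at 3.15 to 12.4 CPM over Ighm levels of 148 to 507 CPM.

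The library labelled SOD1G93A-Lepob/+ 3 was the extreme case. It had 22343 Ighm counts, the most in its genotype, with 138 Igkc counts and 7 Igha counts, the fewest of all 16 libraries for both. It also held 0 Xist counts and 1756 counts of 4 Y-linked genes, against 0 Y-linked counts in the other 15 libraries, which goes against its label of female. Lepob/+ 4 stood apart in another way, with 1848367 counts of the muscle myosin gene Myh4.

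The isotype make-up of a library was taken as the share of each heavy chain gene in the summed counts of the 7. In the 6 libraries with Glycam1, Ighm made up 56.5 to 66.9% of heavy chain counts and Ighd 29.6 to 33.8%. In the other 10, Ighm made up 91.5 to 99.1% and Ighd 0.900 to 4.08%. The switched isotypes, IgA and the 4 IgG genes together, were a minority in each library, from 0.0310% in the library labelled SOD1G93A-Lepob/+ 3 (7 of 22553 counts, 95% Wilson interval 0.0150 to 0.0641%) to 13.3% in Lepob/+ 3 (7693 of 57717, interval 13.1 to 13.6%). Such intervals cover counting error only.

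IgA, the isotype of mucosa and glands, took 1.45, 1.61, 1.95 and 2.94% of heavy chain counts in WT and 0.587, 0.562, 0.787 and 1.90% in Lepob/+. It took 0.388, 0.399, 1.37 and 0.166% in SOD1G93A and 4.72, 6.11, 0.0310 and 1.56% in SOD1G93A-Lepob/+. All 4 SOD1G93A libraries were below all 4 of WT, while SOD1G93A-Lepob/+ held both the highest shares and the lowest. The mean IgA share was 0.580% ± 0.535 in SOD1G93A against 1.99% ± 0.669 in WT (SD, n = 4 each, two-sided exact permutation p = 0.0286, the smallest that 4 against 4 can give). Adjusted by Benjamini-Hochberg over the 16 share tests it was 0.229, so it did not pass. In absolute terms Igha had 531, 420, 263 and 481 counts in WT and 148, 330, 254 and 76 in SOD1G93A. IgM and IgD are in the denominator of the share. Ighd was high in SOD1G93A 1, 2 and 4 (12843, 25320 and 15450 counts) and also in WT 1 and 2 (11343 and 7730). The part of the denominator in the difference was not tested. The log2 fold change of Igha itself between these genotypes was -1.25 (SE 0.94) in edgeR on all 16 libraries, with an adjusted p of 0.999. In fits on the 2 genotypes alone Igha was at an unadjusted p under 0.05, at -1.31 (SE 0.41, adjusted p = 0.944) in edgeR, where 1.54% of all genes were lower at that level, and at -1.28 (SE 0.44, adjusted p = 0.749) in DESeq2 (1.86%).

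IgG transcripts came mostly from few libraries. IgG took 0.600, 1.88, 0 and 0.0551% of heavy chain counts in WT, 1.49, 0.0204, 12.5 and 4.42% in Lepob/+, 0.448, 6.10, 0.145 and 1.08% in SOD1G93A, and 0.0388, 0.0718, 0 and 0% in SOD1G93A-Lepob/+. The 4 SOD1G93A-Lepob/+ libraries lay below the 4 of SOD1G93A, with means of 0.0277% ± 0.0347 and 1.94% ± 2.80 (SD, n = 4 each, two-sided exact permutation p = 0.0286, again the smallest possible), and an adjusted p of 0.229 that did not pass. WT 3 had 0 IgG counts of 13504, which by the Wilson interval allows up to 0.0284%. The remaining 14 of the 16 share tests had unadjusted permutation p-values from 0.0857 to 1.

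The IgG subclasses were also unevenly spread. Lepob/+ 3 and SOD1G93A 2 held 4702 and 2773 counts of Ighg2b, the other 14 libraries 192 or fewer. Ighg1 was led by Lepob/+ 3 and 4, with 930 and 218 counts, Ighg2c by SOD1G93A 2, with 1612, and Ighg3 by Lepob/+ 3 and SOD1G93A 2, with 968 and 607. Among the 10 libraries with few Glycam1 counts, Lepob/+ 4 had the most IgG, 419 counts, of which 218 were Ighg1 and 184 Ighg2b, while the other 9 had 0 to 117. Ighe, the constant gene of IgE, was counted only in Lepob/+ 3 and SOD1G93A 2, with 11 and 12 counts.

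**Figure D3:**
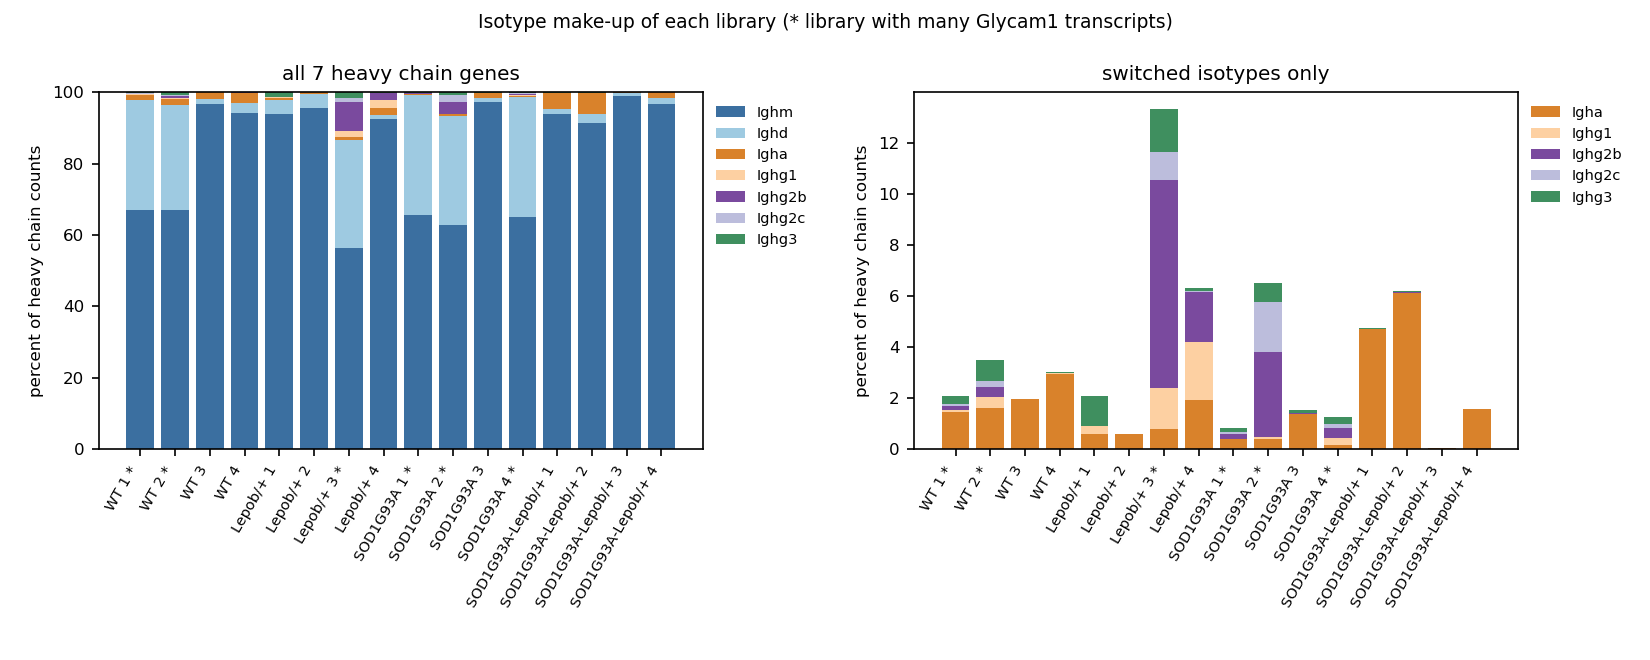
Isotype make-up of each library as stacked bars, in percent of the counts of the 7 heavy chain genes (left) and for the 5 switched isotypes alone on a larger scale (right). Asterisks mark the 6 libraries with many Glycam1 counts, which carry the Ighd band of 29.6 to 33.8%. Switched counts in SOD1G93A-Lepob/+ were nearly all Igha.

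The question of the double mutants was whether the loss of a leptin allele alters the adipose transcriptome of SOD1G93A mice. In SOD1G93A-Lepob/+ against SOD1G93A, 9 of the 10 genes had lower levels, and 0 passed in edgeR's quasi-likelihood test after Benjamini-Hochberg adjustment over the 19736 genes tested (0.0% of all genes passed). At an unadjusted p under 0.05, 8 of 10 were lower, against 12.3% of all genes, and 0 were higher, against 4.19%. The median log2 fold change of the 10 was -5.01, against 0.000453 over all genes.

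Ighd showed a log2 fold change of -6.22 (SE 1.88, adjusted p = 0.261) and Igkc of -4.30 (SE 1.40, adjusted p = 0.261). Mzb1 was at -4.61 (SE 1.75, adjusted p = 0.261). Ighm, which every library expressed, had the smallest negative value, -1.23 (SE 0.51, adjusted p = 0.267), with 18098 to 51960 counts in SOD1G93A and 6691 to 22343 in SOD1G93A-Lepob/+. Jchain was at -1.98 (SE 0.98, adjusted p = 0.325), carried by SOD1G93A 2 with 1757 counts, as the other SOD1G93A libraries had 131, 289 and 157 and SOD1G93A-Lepob/+ had 137, 260, 56 and 73. Igha alone was higher, by 0.81 on the log2 scale (SE 0.93, adjusted p = 0.676), with 607, 510, 7 and 108 counts against 148, 330, 254 and 76.

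The IgG genes were near 0 in the double mutants. Ighg1 and Ighg2c had 0 counts in all 4 SOD1G93A-Lepob/+ libraries, against 171 and 1723 summed over SOD1G93A, which makes them at least 53.7-fold and at least 534-fold lower when 3 counts over the group are taken as the limit. Ighg2b had 4 counts in SOD1G93A-Lepob/+, all in 1 library, against 3034, and Ighg3 had 7 against 809. Ighg2c and Ighg3 were the only members whose 2 genotypes did not overlap, which was so in the lower direction for 3.6% of all genes. No member was higher without overlap (3.58% of all genes). SOD1G93A 2 held most of the Ighg2b, Ighg2c and Ighg3 counts and SOD1G93A 4 most of the Ighg1 counts, so that the log2 fold changes went to -5.18 for Ighg2c without the former and -4.30 for Ighg1 without the latter. SOD1G93A 3 had 0, 5, 3 and 19 counts of Ighg1, Ighg2b, Ighg2c and Ighg3.

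DESeq2 (Wald test, Benjamini-Hochberg), which the study's methods name, called 4 of the 10 lower, where edgeR called 0. Fitted on these 2 genotypes it gave adjusted p-values of 7.33e-07 for Ighd, 0.000504 for Igkc, 3.69e-06 for Ighg3 and 0.00266 for Mzb1, and it called 5.98% of all genes lower and 2.65% higher. Fitted on all 16 libraries it called the same 4 (0.00334, 0.0212, 0.0199 and 0.0268) among 2.7% of all genes lower and 0.384% higher. Ighg1, Ighg2b and Ighg2c were below the count filter when only these genotypes were used, and DESeq2 gave no p-value for Jchain there, nor for Ighg2b and Ighg2c on all libraries.

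Libraries with lymph node transcripts made up 3 of 4 in SOD1G93A and 0 of 4 in SOD1G93A-Lepob/+, and the count of 8 changed with them. With the mean log2 CPM of the 7 stroma genes as a covariate, 0 of 10 members were lower at an unadjusted p under 0.05 (1.49% of all genes), and the log2 fold changes were -0.67 for Ighd (SE 0.59), -0.83 for Igkc (SE 0.64), -0.32 for Ighm (SE 0.50) and 0.47 for Mzb1 (SE 0.65). This covariate was 4.41 to 5.14 in SOD1G93A 1, 2 and 4 and -2.48 to -1.34 in SOD1G93A-Lepob/+. Only SOD1G93A 3, at -1.88, lay within the range of SOD1G93A-Lepob/+, so the 2 genotypes overlap in the covariate through that library alone. In a fit on the 10 libraries with few Glycam1 counts Ighg2c did not pass the count filter and Ighg1 had 0 counts in both genotypes. Of the other 8 members 0 were lower at that level (0.843% of all genes). Ighd was then at 0.12 (SE 0.61), Igkc at -0.75 (SE 0.90) and Ighm at -0.11 (SE 0.56). SOD1G93A has a single library in that fit, assumed to vary like the other genotypes. Its levels of 3.71 CPM for Ighd, 313 for Ighm, 4.39 for Igha and 4.99 for Jchain lay within the range of the 4 SOD1G93A-Lepob/+ libraries, as did those of Igkc, Mzb1, Ighg1 and Ighg2b. Ighg3, at 0.328 CPM (19 counts), and Ighg2c, at 0.0518 CPM (3 counts), lay above it. In the fit on all libraries, leaving out SOD1G93A-Lepob/+ 1 brought the 8 members to 5 (8.32% of all genes lower). Leaving out SOD1G93A 1 made them 9 (9.07%), and each other left-out library of these genotypes gave 6 to 8 (5.61 to 17.5%).

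**Figure D4:**
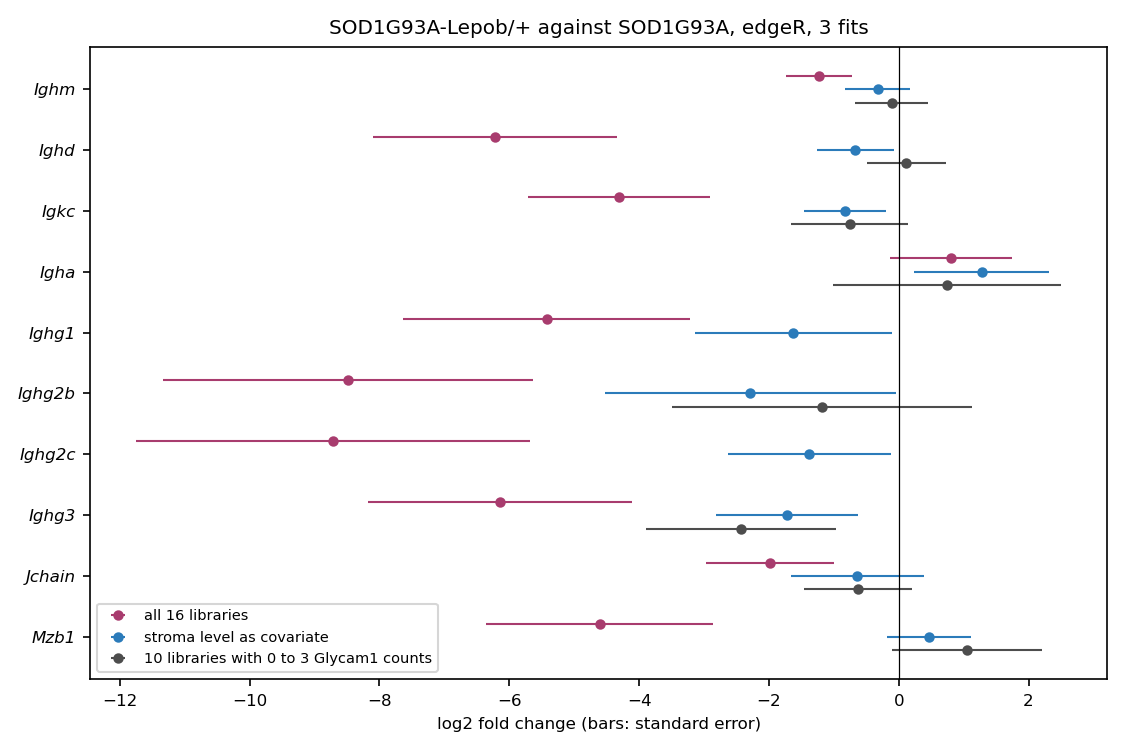
Log2 fold change of each gene in SOD1G93A-Lepob/+ against SOD1G93A with its standard error, from edgeR on all 16 libraries, with the lymph node stroma level as a covariate, and on the 10 libraries with 0 to 3 Glycam1 counts. Ighd goes from -6.22 to -0.67 and 0.12. In the last fit Ighg1, with 0 counts in both genotypes, and Ighg2c, below the count filter, have no value.

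Most genes of the other lymphoid and lymph node lists were lower with the members in the double mutants, whose libraries had 0 Glycam1 counts. The T cell genes summed to 744 to 1287 CPM in SOD1G93A 1, 2 and 4 and to 14.1 CPM in SOD1G93A 3. In SOD1G93A-Lepob/+ they summed to 9.91 to 22.9 CPM. Whether these lists differ apart from the lymph node split was not tested. None of those described here passed edgeR's test after adjustment (0 of each list). DESeq2 on the 2 genotypes called 5.98% of all genes lower and 2.65% higher. It called lower 13 of 14 B cell identity genes, 10 of 10 T cell genes and 3 of 7 stroma and venule genes. Also called lower were 3 of the other constant region genes, 2 of the class switching genes and 4 of the plasma cell programme. Of that programme 3 were called higher. All 5 tested genes of the list of other constant regions and surrogate light chain were lower. At an unadjusted p under 0.05 in edgeR, 4 of them were, against 12.3% of all genes. The lambda gene Iglc2 had 2108, 3703, 31 and 2283 counts in SOD1G93A and 21, 65, 14 and 9 in SOD1G93A-Lepob/+ (log2 fold change -6.05, SE 1.93, adjusted p = 0.261), and Iglc3 showed the same pattern (-6.89, SE 2.18, adjusted p = 0.261).

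All 14 B cell identity genes were lower, each at an unadjusted p under 0.05 (12.3% of all genes). Among them were Spib, a transcription factor of B cells (-6.52, SE 2.06), and Fcmr, the IgM Fc receptor (-7.22, SE 2.29). The 10 T cell genes did the same, as with Cd3g, a chain of the T cell receptor complex (-5.98, SE 1.87). Of the 7 stroma and venule genes 5 were lower at that level, such as Ccl19, the chemokine that draws T cells into nodes (-5.97, SE 2.04). The adjusted p-values of these 4 genes were 0.261.

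The plasma cell programme moved less as a list. Of its 15 genes, 9 were lower and 6 higher. At an unadjusted p under 0.05, 4 were lower, against 12.3% of all genes, and 3 higher, against 4.19%. The median log2 fold change of the programme was -0.22. Its lowest p-values belonged to Tnfrsf13b, a receptor for B cell survival factors (-2.60, SE 0.81), the kinase Pim2 (-2.22, SE 0.73) and Pou2af1, a coactivator of immunoglobulin genes (-6.11, SE 2.05), all with adjusted p = 0.261. The summed level of the programme overlapped in all genotypes. SOD1G93A libraries had 590 to 632 CPM and SOD1G93A-Lepob/+ libraries 504 to 750 CPM. The mean log2 CPM of its genes, which weights each gene alike, differed more between libraries. It was 3.76, 4.16 and 3.78 in SOD1G93A 1, 2 and 4 and 2.96 in SOD1G93A 3. In SOD1G93A-Lepob/+ libraries it ran from 2.93 to 3.33.

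Of the 11 tested genes for class switching and the germinal centre, 9 were lower. At an unadjusted p under 0.05, 2 of them were, against 12.3% of all genes. These were Cd40lg, the T cell signal for switching (-5.57, SE 1.79, adjusted p = 0.261), and Cd40, its receptor (-1.45, SE 0.59, adjusted p = 0.265). Receptors and transporters of immunoglobulin had a median log2 fold change of 0.41, and 0 of 11 were under that level in either direction. Fcgrt, the neonatal Fc receptor that recycles IgG and albumin, was at 9347, 8270, 21207 and 9167 counts in SOD1G93A and 15667, 17453, 15196 and 11513 in SOD1G93A-Lepob/+.

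Of the 12 genes of mammary and glandular epithelium, tissue in which IgA plasma cells can settle, 9 were higher, 5 of them at an unadjusted p under 0.05 (4.19% of all genes), with a median log2 fold change of 0.70 against 0.000453 over all genes. Among these 5 was the casein gene Csn3 (1.35, SE 0.54, adjusted p = 0.262 in edgeR). All 8 adipocyte genes (median 0.47) and all 10 macrophage genes (median 0.53) were higher, 1 and 0 of them at that level, and 7 of 8 skeletal muscle genes were lower, 0 at that level.

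Against Lepob/+, SOD1G93A-Lepob/+ libraries again had lower levels of 9 of 10 members, with 0 past adjustment by edgeR (0.0% of all genes) and 6 lower at an unadjusted p under 0.05 (6.28% of all genes) and 0 higher (1.96%). Those 6 were Ighd (-4.78, SE 1.76), Igkc (-3.18, SE 1.33) and the 4 IgG genes, with adjusted p-values of 0.597 to 0.602. Without Lepob/+ 3 they were 3 (5.56% of all genes), and Ighm, Jchain and Mzb1 changed sign, to 0.38, 0.12 and 0.56. The Ighg1 and Ighg2c counts of Lepob/+ were 1171 and 644, of which Lepob/+ 3 held 930 and 639, against 0 in SOD1G93A-Lepob/+. Without Lepob/+ 3 the log2 fold change of Ighg2c went from -7.41 to -1.59. DESeq2 on all libraries called Ighg1 (adjusted p = 0.00939) and Ighg3 (0.0278), among 0.351% of genes called lower and 0.0649% higher. On the 2 genotypes alone it called 0 members (0.102% of genes lower and 0.0908% higher), with an adjusted p for Ighm, Igha and Jchain alone. No member was without overlap between these genotypes (1.15% of all genes lower and 1.2% higher). With the stroma covariate 3 members were lower at an unadjusted p under 0.05, against 6.03% of all genes. They were Ighg1 (-6.50, SE 1.88), Ighg2b (-5.24, SE 1.85) and Ighg3 (-3.41, SE 1.06), with adjusted p-values in edgeR of 0.428, 0.431 and 0.428. In the fit on the 10 libraries with few Glycam1 counts, 3 of 9 members were lower at an unadjusted p under 0.05 (4.44% of all genes). SOD1G93A, the genotype with a single library there, is not part of this comparison. The comparisons of SOD1G93A-Lepob/+ with SOD1G93A and with Lepob/+ share the SOD1G93A-Lepob/+ libraries.

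Neither mutation alone gave a call. In SOD1G93A against WT, 9 of the 10 had higher levels, 0 of them at an unadjusted p under 0.05 (1.64% of all genes higher and 0.917% lower), and 0 passed adjustment by edgeR (0.0% of all genes). DESeq2, which gave no p-value for Ighg2b and Ighg2c or, on these genotypes, for Jchain, called 0 of the other members on all libraries (0.0104% of genes lower) and on these genotypes (0.0477% higher and 0.0212% lower), and 0 members were without overlap (0.684% of genes lower and 1.37% higher). The log2 fold changes were 0.72 for Ighm (SE 0.50), 1.499 for Ighd (SE 1.53) and 1.51 for Igkc (SE 1.25), with adjusted p = 0.999 for each. With the stroma covariate they were 0.29, -0.04 and 0.33, SOD1G93A having 3 libraries with Glycam1 and WT 2.

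In Lepob/+ against WT, 8 of 10 were higher. Ighg2b had 65, 98, 0 and 3 counts in WT and 0, 0, 4702 and 184 in Lepob/+, and was the 1 member under an unadjusted p of 0.05 in edgeR, where 3.56% of all genes were higher and 0.811% lower. After adjustment by edgeR 0 members passed (0.0% of all genes). DESeq2 gave no p-value for Ighg2b and Ighg2c, nor for Ighg3 when fitted on these genotypes, and called 0 of the other members on all libraries (0.00519% of genes lower) and on these genotypes (0.00557% higher and 0.0167% lower). Between these genotypes 0 members were without overlap (0.532% of genes higher and 0.375% lower). The log2 fold change of Ighg2b, 4.995 (SE 2.31), rested on the latter 2 libraries. Without Lepob/+ 3, 8 members were lower than in WT instead. Ighd (-4.06), Igkc (-2.62) and Mzb1 (-3.93) were then lower at an unadjusted p under 0.05 (4.73% of all genes), with adjusted p-values in edgeR of 0.359, 0.400 and 0.369. With the stroma covariate the 4 IgG genes were higher at that level (3% of all genes), and in the fit on the 10 libraries with few Glycam1 counts 0 members were (1.78%).

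The interaction of both mutations, the difference between the leptin effect with and without the transgene, was negative for 9 of 10. It was under an unadjusted p of 0.05 for 8, against 5.82% of all genes, with 0 positive (2.16%). By edgeR 0 passed adjustment (smallest adjusted p over all genes 0.564, 0.0% of genes), and by DESeq2 0 of the 8 members that it gave a p-value (0.196% of genes negative and 0.0477% positive). Ighd was at -6.27 (SE 2.30) and Igkc at -4.69 (SE 1.82), with adjusted p = 0.564 for both. Negative at that level were 3 of 10 with the stroma covariate (3.85% of all genes), 3 without Lepob/+ 3 (3.27%) and 5 without SOD1G93A 2 (2.28%). In the fit on the 10 libraries with few Glycam1 counts, where SOD1G93A has a single library, the interaction was negative for 4 of 9 members.

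Over the 16 libraries the 10 genes fell into patterns that can be described by Spearman's rho of log2 CPM, where the libraries share the lymph node split. Igkc was most alike to Ighg2b (0.917), Ighg2c (0.895) and Mzb1 (0.862), and Ighd to Mzb1 (0.782). Igha stood apart, with 0.635 for Jchain as its highest value and 0.079 for Ighd. Outside the immunoglobulin genes, the genes most alike to Ighd were Zc3h12a (0.982), Mical1 and Zzef1 (0.979 each), those most alike to Mzb1 were Gm19951 (0.982), Itgal (0.956) and Rpl34 (0.947), and those most alike to Igkc were Il12rb1 (0.947), AU020206 (0.941) and Abtb2 (0.938). Ighm was most alike to Gm25747 (0.935), Suv39h1 and 4833403J16Rik (0.929 each). Igha had no gene above 0.765, reached by Zfp574 and Pgbd1, and Jchain was led by Cd2bp2 (0.844). For the IgG genes the leaders were Cd274 for Ighg1 (0.933), Pik3ip1 for Ighg2b (0.947), Apol11a for Ighg2c (0.949) and F8 for Ighg3 (0.920).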

How the data were processed

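RNA of iWAT was extracted with Qiazol and a lipid tissue kit. The paper names TruSeq Stranded mRNA libraries and the sample labels a NEBNext Ultra kit. Per the submitters' processing notes and the paper, the authors trimmed reads with fastp, aligned them to mm10 with HISAT2 2.1.0 and counted unique reads per gene with featureCounts 2.0.2. The strand setting and the annotation release are not given in the sources used here. The deposited values are raw counts, which were analysed as deposited, and 54723 of 54752 identifiers were paired with a symbol.

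Genes were kept by filterByExpr of edgeR 4.0.16 in R 4.3.3 (min.count 10, min.total.count 15), which left 19736 genes with all 10 members. Libraries were scaled by TMM, and 1 robust quasi-likelihood fit of the 16 libraries gave each comparison, with Benjamini-Hochberg adjustment over all genes tested at 0.05. The SE given for edgeR is the absolute log2 fold change divided by the square root of the F statistic. Fold changes used a prior count of 1, on which those of genes with 0 counts in a genotype depend, as does their SE. Bounds on the scale of 0 counts used 3 counts over the group. Shares of heavy chain counts were compared by two-sided exact permutation tests of 4 against 4 (scipy 1.17.1) and adjusted over 16 tests. The scripts were tested on simulated data. With 36795376 to 61886313 counts per library, the spread between mice exceeded counting error except for genes near 0 counts. P-values measure the spread between these libraries, which the labels do not tie to separate litters.

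The 10 members and all gene lists were chosen with earlier results of these data known. Named genes are the members, up to 3 genes of each other list with the smallest p in SOD1G93A-Lepob/+ against SOD1G93A (some given only by their list's count), and the 3 genes most alike to each member. Glycam1, Cd79a, Ighe and Xist were named after their values were seen. Alternatives were DESeq2 1.42.0, other scaling and filters, the replicate number as a block, a stroma covariate, and leaving out libraries. The fit without the 6 libraries with Glycam1 was chosen after seeing the data. Same-numbered libraries did not deviate together across all genotypes: of 24 pairs, 5 had a correlation of residuals over 0.1 and 8 under -0.1. WT and SOD1G93A libraries numbered 1, 2 and 3 had 0.412, 0.407 and 0.52, and those numbered 4 had -0.312. Sequences and coordinates are from GENCODE and its GRCm38 annotation.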

Additional observations from a re-analysis of the deposited data

Results flagged for a closer look

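Of 56 sets of 4 libraries examined with Dixon's criterion, 17 had a library far from the others. The sets share libraries and some are mostly 0, so this number cannot be compared with a rate by chance. Lepob/+ 3 stood above the rest of its genotype in Ighd (423.6 CPM, others 3.76 to 9.04), Igkc (389.9 CPM, others 9.43 to 21.4), Ighg2b (114.2 CPM, others 0 to 6.13), Ighg2c (15.52 CPM, others 0 to 0.167), Ighg3 (23.51 CPM, others 0.0489 to 1.89), Jchain (27.79 CPM, others 1.57 to 5.36) and Mzb1 (23.27 CPM, others 0.181 to 0.4996), and in the share of IgD in IgM and IgD counts (34.87%, others 1.27 to 4.17%). It is the Lepob/+ library with 25263 Glycam1 counts.

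SOD1G93A 2 stood above its genotype in Ighg2b (62.63 CPM, others 0.0863 to 4.43), Ighg2c (36.41 CPM, others 0.0518 to 1.59) and Jchain (39.68 CPM, others 2.79 to 4.99), in the switched share of heavy chain counts (6.503%, others 0.836 to 1.51%) and in the IgG share (6.104%, others 0.145 to 1.08%). SOD1G93A 3, the SOD1G93A library with 0 Glycam1 counts, stood below the others in the IgD share (1.174%, others 32.8 to 34.2%). WT 2 was high in Ighg1 (2.64 CPM, others 0 to 0.413), and Lepob/+ 4 in the IgA share (1.9%, others 0.562 to 0.787%). SOD1G93A-Lepob/+ 2 had 0.09993 CPM of Ighg2b, which is 4 counts, where the other 3 libraries had 0.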

How the results depend on the processing

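The number of members called was 0 under each edgeR setting, and under DESeq2 it was 4 (both fits) for SOD1G93A-Lepob/+ against SOD1G93A and 2 (all libraries) for SOD1G93A-Lepob/+ against Lepob/+. Over all genes, DESeq2 on all libraries called 1 (Lepob/+ against WT), 2 (SOD1G93A against WT), 595 (SOD1G93A-Lepob/+ against SOD1G93A), 77 (SOD1G93A-Lepob/+ against Lepob/+) and 46 (interaction), and on the compared genotypes 4, 13, 1530 and 34, where edgeR called 0 in each. Other edgeR settings called at most 3: for SOD1G93A-Lepob/+ against SOD1G93A 2 on the compared genotypes, 2 without Lepob/+ 4 and the library labelled SOD1G93A-Lepob/+ 3, and 3 without the 6 libraries with Glycam1. They called 2 for SOD1G93A-Lepob/+ against Lepob/+ without the former pair, 1 with the stroma covariate and 2 without the 6 libraries for SOD1G93A against WT, and 1 without the 6 libraries for the interaction. Leaving out each library in turn gave 0 to 1 (SOD1G93A against WT), 0 to 3 (SOD1G93A-Lepob/+ against SOD1G93A), 0 to 2 (SOD1G93A-Lepob/+ against Lepob/+) and 0 to 2 (interaction).

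Ighd and Mzb1, which DESeq2 called lower in SOD1G93A-Lepob/+ against SOD1G93A, turned sign there in edgeR fits listed below. No log2 fold change of a member that turned sign passed the adjusted threshold of edgeR in either setting. With the stroma covariate these were, in Lepob/+ against WT, Ighd -0.22, Igkc -0.022 and Mzb1 -0.031, in SOD1G93A against WT Ighd -0.041, Ighg1 -0.43 and Mzb1 -0.11, in SOD1G93A-Lepob/+ against SOD1G93A Mzb1 0.47, against Lepob/+ Ighm 0.19 and Mzb1 0.40, and in the interaction Mzb1 0.50. Without the 6 libraries with Glycam1 they were, in the same order, Ighd -0.39, Igkc -0.55, Jchain -0.76 and Mzb1 -0.51, then Ighm -0.27, Ighd -1.18, Ighg1 -1.41, Jchain -0.0085 and Mzb1 -1.01, then Ighd 0.12 and Mzb1 1.05, then Ighm 0.38, Jchain 0.12 and Mzb1 0.55, and Ighm 0.65, Ighd 0.51, Jchain 0.13 and Mzb1 1.56. The cause was not tested. Ranges over left-out libraries that crossed 0 were, for Lepob/+ against WT, Ighm -0.89 to 0.087, Ighd -4.06 to 0.77, Igkc -2.62 to 0.98, Ighg2c -2.92 to 4.01, Ighg3 -1.18 to 3.08, Jchain -0.54 to 1.44 and Mzb1 -3.93 to 0.91. For SOD1G93A against WT they were Ighg1 -0.84 to 2.37, Ighg3 -0.29 to 2.56 and Jchain -0.18 to 1.89, and for SOD1G93A-Lepob/+ against Lepob/+ Ighm -0.76 to 0.38, Jchain -2.10 to 0.12 and Mzb1 -4.42 to 0.56.

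In percentage points, the switched share of SOD1G93A less that of WT was -0.0966 and became 0.269 per exon length, with -1.42 to 0.466 over left-out libraries. For SOD1G93A-Lepob/+ less SOD1G93A it was 0.607 and turned to -0.677 as a log2 ratio, with -0.408 to 1.93, and for SOD1G93A-Lepob/+ less Lepob/+ it ran from -4.11 to 0.137. The IgG share of SOD1G93A less WT ran from -0.0748, without SOD1G93A 2, to 1.91. The IgA difference of SOD1G93A and WT ran from -1.67 to -1.09, and the IgG difference of SOD1G93A-Lepob/+ and SOD1G93A from -2.52 to -0.530 and was -1.91 without Lepob/+ 4 and the library labelled SOD1G93A-Lepob/+ 3. With 3 libraries against 4, the permutation test cannot reach a p under 0.05.

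The replicate numbers did not pair the libraries across all genotypes. As a block they gave -1.41 for the IgA difference and -1.92 for the IgG difference, where a test within 4 pairs cannot reach p under 0.05. They turned Ighd to -1.13 and Mzb1 to -0.17 in Lepob/+ against WT and Ighg1 to -0.067 in SOD1G93A against WT, and no member was called. The IgG genes had 0 counts in 3 to 8 libraries, and 0 counts allow up to 3.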
